A study of Sus scrofa with 25 samples.

Results

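Transcripts of 8 genes of fat storage and release were followed in muscle of pigs fed different amounts of vitamin D3. ADIPOQ and LEP encode the adipokines adiponectin and leptin, PLIN1 and CIDEC encode proteins on the surface of lipid droplets, and TRARG1 encodes a regulator of the glucose transporter GLUT4. PNPLA2 and LIPE encode triglyceride lipases, and FABP4 encodes a fatty acid carrier. The genes were found by their symbols in an Ensembl table of pig gene names, in which each matched 1 of the 25880 pig gene identifiers in the files. The identifiers are ENSSSCG00000039103 (ADIPOQ), ENSSSCG00000040464 (LEP), ENSSSCG00000001844 (PLIN1), ENSSSCG00000011557 (CIDEC), ENSSSCG00000017801 (TRARG1), ENSSSCG00000012841 (PNPLA2), ENSSSCG00000003018 (LIPE) and ENSSSCG00000040681 (FABP4).

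The study asked how vitamin D3 in feed bears on the muscle transcriptome. The control group (8 pigs) had 0 IU/kg of feed, the D5000 group (8 pigs) had 5000 IU/kg and the D10000 group (9 pigs) had 10000 IU/kg. The pigs of all 3 groups had Landrace sires and Polish Large White dams, lived singly in pens on straw and ate feeds of equal protein and energy for 90 days from day 85 of life. Pigs of a litter were spread over the groups, but the litter, the sex and the muscle sampled are not given for single pigs in the sources used here. Each pig gave 1 library, named below by its diet and animal number.

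Adipocytes keep triglyceride in a large droplet coated by perilipin 1, and CIDEC, known from mouse and human adipocytes, helps droplets to fuse and grow. Adipose triglyceride lipase, the product of PNPLA2, takes the first fatty acid off triglyceride, and hormone-sensitive lipase, the product of LIPE, acts mainly on the diglyceride that results. Muscle fibres also hold droplets and use PNPLA2 and LIPE. Adiponectin, leptin, perilipin 1 and CIDEC are known chiefly from adipocytes, which in whole muscle lie between the fibres and bundles. FABP4 is also made by endothelium of small vessels and by macrophages.

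The libraries held 3310507 to 15177976 gene counts, and 24.9% to 70.6% of the reads in a file were assigned to genes. Levels are given as CPM, counts scaled to the total gene count of the library, and because 3′ ends were counted, a count does not scale with transcript length. A count of 0 allows up to 3 counts, which is 0.198 to 0.906 CPM by library. These floors, and the interval given below for a share of counts, cover counting error only. The marker ACTA1, skeletal muscle actin, held 10029 CPM in D10000 replicate 27, against 27735 to 213895 CPM in the other 24 libraries, so muscle transcripts were present in all 25. Liver transcripts were present too: ALB and the other 5 genes of a liver list summed to 2033.3 CPM in D10000 replicate 27 and to 2564 to 27899 CPM in the other 24. In 4 further libraries (D10000 replicates 2 and 7, D5000 replicates 11 and 18) under 45% of the reads were assigned to genes.

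D10000 replicate 27 stood apart from the other 24 libraries in these genes. It was the highest of the 25 libraries for 8 of the 8 genes, and for 8 of the 8 it held over 5 times the CPM of the next library. Among all 10992 genes with enough counts to be tested, 22.6% were highest in this library and 1.68% were over 5 times the next library. LEP is not among those tested genes. The 8 genes were chosen with earlier results of these data known, so these counts are a description and no test. The 8 genes together took 1.35% of the gene counts of D10000 replicate 27, against 0.0115% to 0.0483% in the other 24. In bulk RNA, more cells of a type and more RNA per cell cannot be told apart. The edgeR comparisons of the diets below are therefore given with and without this library.

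The adipokine gene ADIPOQ was counted in each of the 25 libraries. The control libraries held 5.06 to 28.5 CPM (median 9.73) and the D5000 libraries held 0.651 to 44.1 CPM (median 7.43). In the D10000 group, replicate 27 held 1234 CPM, from 15866 counts, and the other 8 libraries held 2.64 to 52.9 CPM (median 16.0). Apart from replicate 27 the ranges of the 3 diets overlapped, and replicate 27 lay 23.3 times above D10000 replicate 2, the next library.

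LEP was near the floor elsewhere. It was at 0 in 6 of the 8 control libraries, in 7 of the 8 D5000 libraries and in 7 of the 9 D10000 libraries. The counts above 0 were 10 in control replicate 28 (1.22 CPM), 15 in control replicate 3 (2.11 CPM), 11 in D5000 replicate 25 (0.901 CPM), 9 in D10000 replicate 20 (0.865 CPM) and 1079 in D10000 replicate 27 (83.9 CPM). So 96.0% of all LEP counts came from 1 library. With 2 libraries at the level the filter on low counts asks for (1.23 CPM in at least 8 libraries), LEP did not enter the fit. With no filter LEP had a log2 fold change of 4.27 ± 1.83 at 10000 IU/kg against control (unadjusted p = 0.0284, adjusted p = 0.3989 in edgeR), with D10000 replicate 27 in.

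PLIN1, the droplet coat gene, was at 0 in 12 of the 25 libraries. The control libraries held 0 to 2.57 CPM (median 0.644, with 3 at 0), and the D5000 libraries held 0 to 2.29 CPM (median 0.0651, with 4 at 0). D10000 replicate 27 held 102 CPM, from 1316 counts. The other 8 D10000 libraries held 0 to 4.93 CPM (median 0, with 5 at 0). PLIN1 reached the level of the filter in 8 libraries, the fewest allowed, D10000 replicate 27 among them, and it could not be tested in the other 24 libraries alone. It was tested in 23 of the 25 fits that each left out 1 library.

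CIDEC was low in muscle of most pigs. Its level was 0 to 12.5 CPM in the control libraries (median 3.34), 0 to 14.6 CPM in the D5000 libraries (median 1.55) and 0 to 7.40 CPM in 8 D10000 libraries (median 3.55). D10000 replicate 27 held 805 CPM, from 10348 counts, which was 55.2 times the level in D5000 replicate 25, the next library. The diets overlapped otherwise, and each had at least 1 library at 0.

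TRARG1 had the widest gap between D10000 replicate 27 and the rest of the 8 genes. Its product, studied mainly in mouse and human fat cells, sits on vesicles that carry GLUT4. The control libraries held 0.312 to 6.88 CPM (median 3.71) and the D5000 libraries held 0.694 to 9.42 CPM (median 1.60). D10000 replicate 27 held 4679.7 CPM, from 60164 counts, while the other 8 D10000 libraries held 0.457 to 20.1 CPM (median 2.32). This library lay 233 times above D10000 replicate 20, the next one, and held 98.6% of all TRARG1 counts of the series.

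The lipase genes were counted in each of the 25 libraries. PNPLA2 had 69.5 to 310.2 CPM in the control libraries (median 136), 35.1 to 127 CPM in the D5000 libraries (median 66.0) and 14.5 to 340.1 CPM in 8 D10000 libraries (median 97.8). D10000 replicate 27 held 2308 CPM, which was 6.79 times the level in D10000 replicate 13, the smallest such gap among the 8 genes. Without replicate 27 the mean level was 74.5 ± 37.5 CPM in D5000 and 117 ± 105 CPM in D10000, against 160.0 ± 94.8 CPM in control (SD, n = 8 each). Neighbours in that order differed by less than the SD of the wider group. The SD is of single libraries and is no test of the means, which the fits below compare, D5000 with control among them.

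LIPE had 9.16 to 118 CPM in the control libraries (median 48.7), 8.99 to 55.2 CPM in the D5000 libraries (median 17.1) and 12.7 to 67.2 CPM in 8 D10000 libraries (median 34.8). The ranges of the 3 diets overlapped. D10000 replicate 27 held 2339 CPM, or 19.8 times the level in control replicate 28, the next library.

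FABP4 had 16.8 to 102 CPM in the control libraries (median 60.2), 7.85 to 110.2 CPM in the D5000 libraries (median 34.7) and 24.3 to 93.9 CPM in 8 D10000 libraries (median 52.7). D10000 replicate 27 held 1944 CPM, which was 17.6 times the level in D5000 replicate 25. The ranges of the 3 diets overlapped without it, and their medians lay within the spread of each diet.

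**Figure D1:**
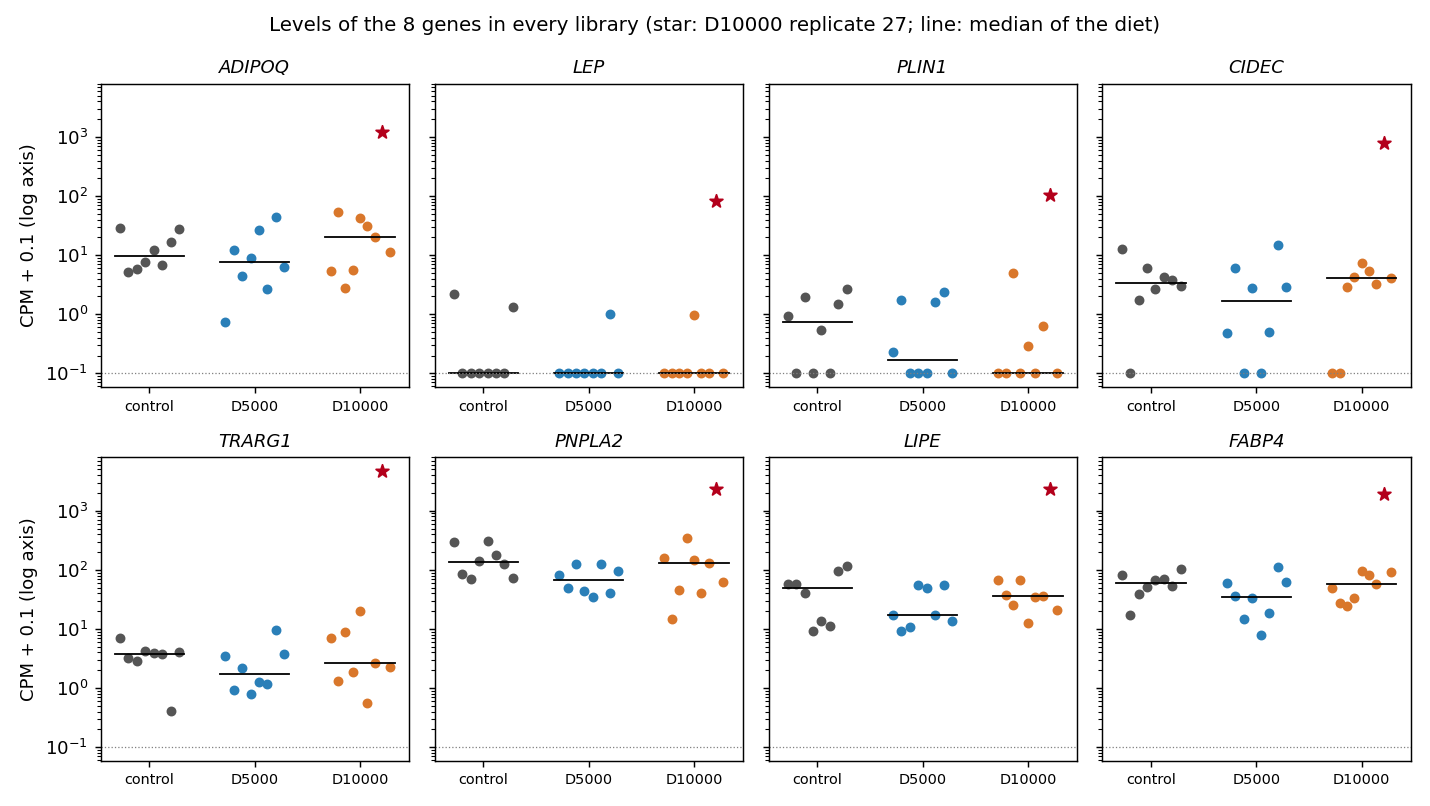
Each panel shows 1 gene, with CPM + 0.1 on a log axis for every library of the control, D5000 and D10000 groups; points are libraries, the star is D10000 replicate 27 and the line is the median of the diet. The star is the highest point in 8 of the 8 panels, from 83.9 CPM for LEP to 4679.7 CPM for TRARG1, and the other points of the 3 diets overlap.

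The proportions among the 8 genes also differed in D10000 replicate 27. TRARG1 made up 34.7% of the summed counts of the 8 genes there (Clopper-Pearson 95% interval 34.4% to 34.9%), against 0.104% to 7.53% in the other 24 libraries (median 1.26%). CIDEC made up 5.96% (5.85% to 6.08%), against 0% to 5.26% (median 1.25%), and LEP 0.622% (0.585% to 0.660%), against 0% to 0.437%. The highest of these others were D5000 replicate 25 for CIDEC (interval 4.53% to 6.07%) and control replicate 3 for LEP (0.245% to 0.719%), whose intervals overlapped that of replicate 27, so only the share of TRARG1 stood clear of the other 24 libraries beyond counting error. PNPLA2 went the other way: it made up 17.1% in replicate 27 and 10.9% to 79.4% in the others (median 47.4%), with 22 of the 24 above it. The shares of LIPE (17.3%, against a median of 14.4%), FABP4 (14.4%, against 22.7%), ADIPOQ (9.14%, against 4.49%) and PLIN1 (0.758%, against 0.0299%) lay inside the range of the other 24.

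**Figure D2:**
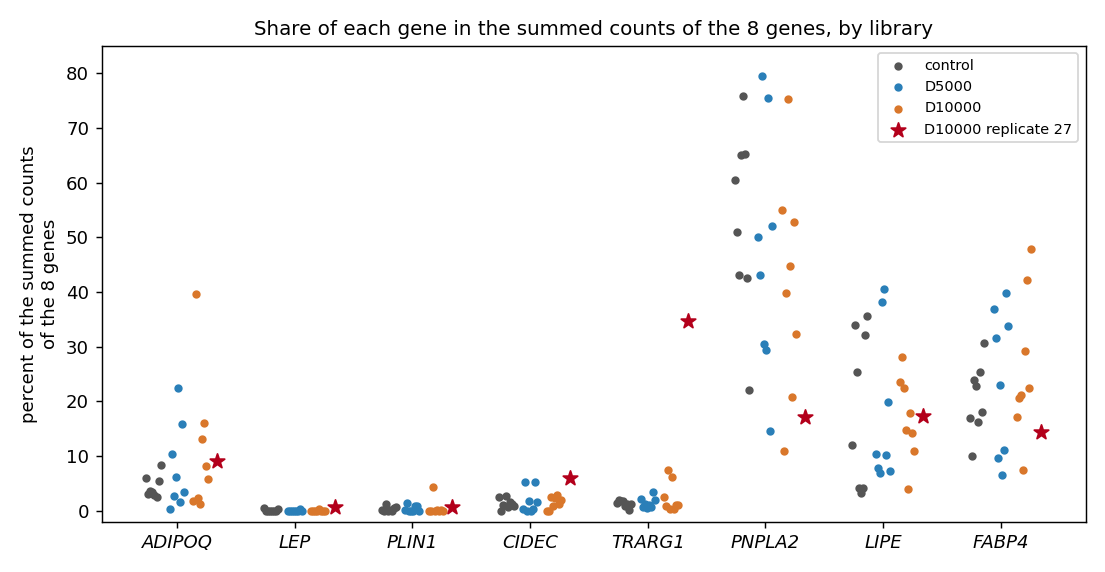
The plot gives the share of each gene in the summed counts of the 8 genes (percent, vertical axis) for every library; small points are the control, D5000 and remaining D10000 libraries, and the star is D10000 replicate 27. For TRARG1 the star is at 34.7%, above a range of 0.104% to 7.53%, while for PNPLA2 it is at 17.1%, below 22 of the 24 other points.

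Other cell type markers moved with D10000 replicate 27 as well, and their part in the levels above was not tested. The 8 matched muscle fibre genes summed to 12863 CPM there, against 63710 to 253615 CPM in the other 24 libraries, and 6 of the 8 were at their lowest. The 7 fibroblast and matrix genes summed to 7036 CPM, against 641 to 2879 CPM. Of the 7, 3 were at their highest: COL1A1 (3423 CPM), COL3A1 (3058 CPM) and MMP2 (171 CPM, against 3.88 to 14.5 CPM). COL1A2, DCN, LUM and PDGFRA (0.622 CPM) lay inside the range of the others. The 4 endothelial genes summed to 389 CPM, against 46.2 to 165 CPM. PECAM1 and EMCN were at their highest there, and CDH5 was second lowest of the 25 libraries. None of the matched genes of these 3 lists was at 0 in this library. At 10000 IU/kg against control 8 of the 8 fibre genes had a negative log2 fold change, with a median of -0.58 with all libraries and -0.44 without replicate 27, and none passed the adjusted threshold in edgeR. Of all tested genes, 4702 of 10992 were negative with all libraries and 5240 of 10876 without replicate 27. The 8 fibre genes were read in the same libraries and are not 8 independent observations.

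With all 25 libraries, D10000 muscle had higher fitted levels of 7 of the 7 tested genes than control muscle, where 57.2% of all tested genes were higher, but none passed the threshold of 0.05 after Benjamini-Hochberg adjustment over the 10992 genes tested (edgeR quasi-likelihood test). Across the transcriptome 0% of the genes passed it, and 231 higher genes (2.1%) and 32 lower ones (0.291%) had an unadjusted p under 0.05. The log2 fold change was 6.71 ± 1.77 for TRARG1 (SE; unadjusted p = 0.000941), 4.10 ± 1.50 for CIDEC (0.0118), 3.29 ± 1.52 for PLIN1 (0.0394) and 3.20 ± 1.08 for ADIPOQ (0.00678). It was 2.23 ± 0.95 for LIPE, 1.81 ± 0.79 for FABP4 and 0.86 ± 0.66 for PNPLA2. The adjusted p was 0.9997 for each of the 7. The unadjusted p was under 0.05 for 6 of the 7, that is without PNPLA2, while 2.1% of all tested genes were higher at that level. PLIN1 did not pass the filter in the 24 libraries without D10000 replicate 27. That library is the highest for each of the 7, so the count describes it and is no support for a difference between diets.

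Without D10000 replicate 27 the fold changes at 10000 IU/kg against control shrank or turned. TRARG1 stood at 0.51 ± 0.68 and ADIPOQ at 0.61 ± 0.64, while CIDEC (-0.25 ± 0.91), LIPE (-0.45 ± 0.49), PNPLA2 (-0.48 ± 0.45) and FABP4 (-0.06 ± 0.48) stood below 0. The adjusted p was 0.9987 for each of these 6 in edgeR, and none had an unadjusted p under 0.05, with 1.28% of the 10876 genes tested higher and 0.478% lower at that level. ADIPOQ averaged 156 ± 405 CPM over the 9 D10000 libraries (SD) and 21.4 ± 18.8 CPM over 8 of them, against 13.7 ± 9.68 CPM in control. TRARG1 averaged 525 ± 1558 CPM over 9 and 5.46 ± 6.57 CPM over 8, against 3.59 ± 1.81 CPM in control.

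D10000 against D5000 gave a like picture, and it shares its D10000 libraries with the comparison above. With all libraries 7 of 7 fold changes were positive, as were those of 54.6% of all tested genes, and they ran from 2.04 ± 0.68 for PNPLA2 to 6.97 ± 1.79 for TRARG1 on the log2 scale. Again PLIN1 was tested here but did not pass the filter in the 24 libraries without replicate 27. The unadjusted p was under 0.05 for 7 of 7, where 2.11% of all tested genes were higher and 0.828% lower at that level. The adjusted p was 0.9985 for each (edgeR). Without D10000 replicate 27 the values were 0.76 ± 0.69 for TRARG1, 0.70 ± 0.45 for PNPLA2, 0.45 ± 0.64 for ADIPOQ, 0.27 ± 0.48 for FABP4, 0.18 ± 0.49 for LIPE and -0.33 ± 0.91 for CIDEC. None of these had an unadjusted p under 0.05 (0.883% of all tested genes were higher and 1.15% lower at that level), and the adjusted p was 0.9998 for each.

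For D5000 against control, D10000 replicate 27 enters through the shared estimate of spread and through the filter, which PLIN1 did not pass in the other 24 libraries. The lipase gene PNPLA2 had the largest difference, a log2 fold change of -1.17 ± 0.68 (unadjusted p = 0.0933, adjusted p = 0.9986 in edgeR). With replicate 27 left out of the fit the value was -1.17 ± 0.45 (unadjusted p = 0.0145, adjusted p = 0.9344), where 1.5% of all tested genes were lower and 2.85% higher at an unadjusted p under 0.05. The other tested genes ranged from -0.64 ± 0.93 for LIPE to 0.14 ± 1.02 for ADIPOQ with all libraries, with FABP4 at -0.34 ± 0.78, and none of the 6 had an unadjusted p under 0.05. Without replicate 27 LIPE was at -0.63 ± 0.49, ADIPOQ at 0.16 ± 0.64, FABP4 at -0.33 ± 0.48, TRARG1 at -0.25 ± 0.69 and CIDEC at 0.08 ± 0.91. Leaving out D5000 replicate 25 instead moved ADIPOQ to -0.78 ± 1.03, CIDEC to -1.11 ± 1.47 (0.06 with it in), PLIN1 to -0.96 ± 1.61, TRARG1 to -1.15 ± 1.57 (-0.25 with it in), LIPE to -0.99 ± 0.98 and FABP4 to -0.90 ± 0.79, each with an unadjusted p over 0.05. The count of genes past the adjusted threshold was 0 here too, with 236 higher genes (2.15%) and 136 lower ones (1.24%) at an unadjusted p under 0.05.

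**Figure D3:**
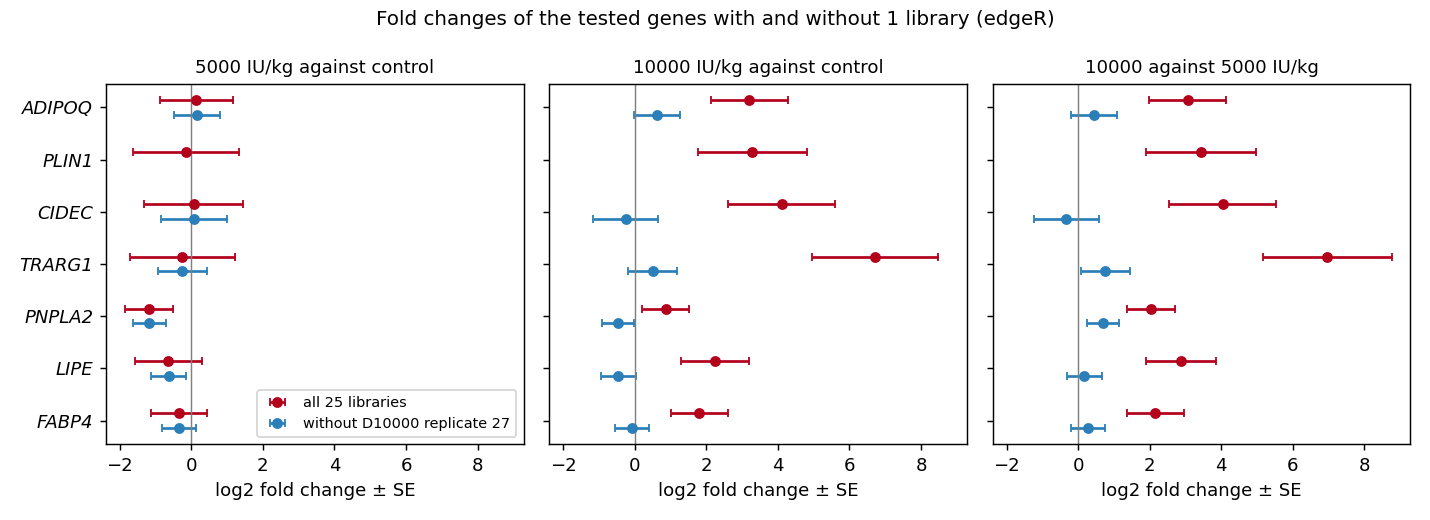
Points are edgeR log2 fold changes with their SE (horizontal axis) for the 7 tested genes in the 3 contrasts, in red with all 25 libraries and in blue without D10000 replicate 27; PLIN1 was below the filter on low counts in the other 24. At 10000 IU/kg against control TRARG1 is at 6.71 with the library and 0.51 without it, while the 5000 IU/kg points hardly move.

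No gene passed the adjusted threshold with other tools either: DESeq2 and limma-voom each called 0 genes in each of the 3 contrasts. At 10000 IU/kg against control DESeq2 had 289 higher and 50 lower genes at an unadjusted p under 0.05, and limma-voom had 79 and 138. DESeq2 replaced outlying counts in 207 genes, among them ADIPOQ, PLIN1, CIDEC, TRARG1, LIPE and FABP4 but not PNPLA2. Its log2 fold changes at 10000 IU/kg against control were 0.57 ± 0.58 for ADIPOQ, 0.44 ± 0.59 for TRARG1 and -0.46 ± 0.47 for LIPE. PNPLA2, whose counts were kept, that of D10000 replicate 27 among them, was at 1.02 ± 0.67 against control. For D10000 against D5000 it was at 2.19 ± 0.67 (DESeq2 unadjusted p = 0.00115, adjusted p = 0.8127), against 0.70 in edgeR without replicate 27. In that contrast DESeq2 had 279 of 10992 genes higher and 114 lower at an unadjusted p under 0.05. Of the 7 tested genes 2 were among the higher ones, PNPLA2 and 1 of the genes with replaced counts. Neither passed the adjusted threshold. The value of PNPLA2 includes replicate 27 and is no support for a difference between diets.

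Further genes of fat metabolism were described by role, in lists that leave out the 8 genes. None of their genes passed the adjusted threshold in edgeR in any contrast, with or without D10000 replicate 27. At 10000 IU/kg against control the median log2 fold change of all tested genes was 0.07 with all libraries, with 57.2% positive, and 0.02 without replicate 27, with 51.8% positive.

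Among 9 tested adipokines and adipokine receptors, 5 had a positive and 4 a negative log2 fold change, with a median of 0.09, and without replicate 27 the split was 2 to 7 with a median of -0.09. ADIPOR2, a receptor for adiponectin, had 1304 CPM in D10000 replicate 27 and 36.9 to 140.1 CPM in the other 24 libraries, with a log2 fold change of 0.92 ± 0.45 with all libraries and -0.20 ± 0.24 without replicate 27. CFD, which encodes the adipokine adipsin, had 1117 CPM against 24.5 to 210.4 CPM, with 0.39 ± 0.45 with all libraries and -0.45 ± 0.33 without replicate 27. ANGPTL4, an inhibitor of lipoprotein lipase, was at 0.09 ± 0.43 with it and -0.63 ± 0.34 without it.

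Of 11 tested genes of droplet coat and formation, 7 were positive and 4 negative (median 0.34), against 2 and 9 (median -0.18) without replicate 27. HILPDA, a droplet protein that inhibits PNPLA2's lipase, was at 1.05 ± 0.44 with all libraries and at -0.0046 ± 0.27 without that library. PLIN5, the perilipin of oxidative tissues, was at -1.11 ± 0.62 with it and -1.35 ± 0.63 without it, and FITM1, a droplet-forming gene of muscle, at -1.42 ± 0.70 with it and -1.26 ± 0.71 without it. PLIN4 had 1640 CPM in replicate 27 against 35.9 to 172 CPM in the others, whereas PLIN2, the perilipin of most tissues, had 8.24 CPM there and was lower in 1 other library alone.

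Of 8 tested lipases, cofactors and controls of lipolysis, 6 were positive and 2 negative (median 0.58), against 3 and 5 (median -0.15) without replicate 27. LPL, lipoprotein lipase, had 6328 CPM in replicate 27 and 18.3 to 153 CPM in the other 24 libraries, and its log2 fold change was 2.85 ± 1.03 with that library and -0.37 ± 0.45 without it. MGLL, which encodes the lipase of the last step after PNPLA2 and LIPE, was at 1.29 ± 0.69 with it and -0.54 ± 0.37 without it. PDE3B, which encodes a phosphodiesterase that lowers the cAMP signal for lipolysis, was at 0.56 ± 0.37 with it and 0.43 ± 0.36 without it. G0S2, an inhibitor of PNPLA2's lipase, was at 0.0778 CPM in replicate 27, which was 1 count. It was at 0 in 11 of the 25 libraries.

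Of 6 tested genes of fatty acid binding and triglyceride synthesis, 4 were positive and 2 negative (median 0.15), against 1 and 5 (median -0.08) without replicate 27. DGAT1, of the last step of triglyceride synthesis, was at 1.63 ± 0.62 with all libraries and -0.026 ± 0.44 without replicate 27, and AGPAT2, an acyltransferase of the same pathway, at -0.44 ± 0.46 and -0.38 ± 0.47. FABP3, the fatty acid carrier of heart and muscle, was at -0.38 ± 0.65 with all libraries and -1.55 ± 0.51 without replicate 27 (unadjusted p = 0.00464, adjusted p = 0.9987 in edgeR). Its levels were 49.2 to 152 CPM in 8 D10000 libraries and 69.2 to 1029 CPM in control, and these ranges overlapped.

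Of 7 tested adipocyte transcription factors, 5 were positive and 2 negative (median 0.64), and without replicate 27 the split was 6 to 1 (median 0.18). SREBF1, a driver of lipid synthesis, was at 0.64 ± 0.32 with all libraries and 0.77 ± 0.30 without replicate 27 (unadjusted p = 0.0146, adjusted p = 0.9987). EBF1 was at 0.66 ± 0.45 with all libraries and 0.028 ± 0.38 without replicate 27, and EBF2 at 1.09 ± 0.90 and 1.20 ± 0.92. Of the 8 factors only EBF1 was at its highest in D10000 replicate 27. PPARG, the main regulator of the fat cell programme, had 6.92 CPM there, against a median of 0.788 CPM and a highest of 7.55 CPM elsewhere. CEBPA had 0.0778 CPM in replicate 27, which was 1 count, and was at 0 in 21 of the 25 libraries.

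**Figure D4:**
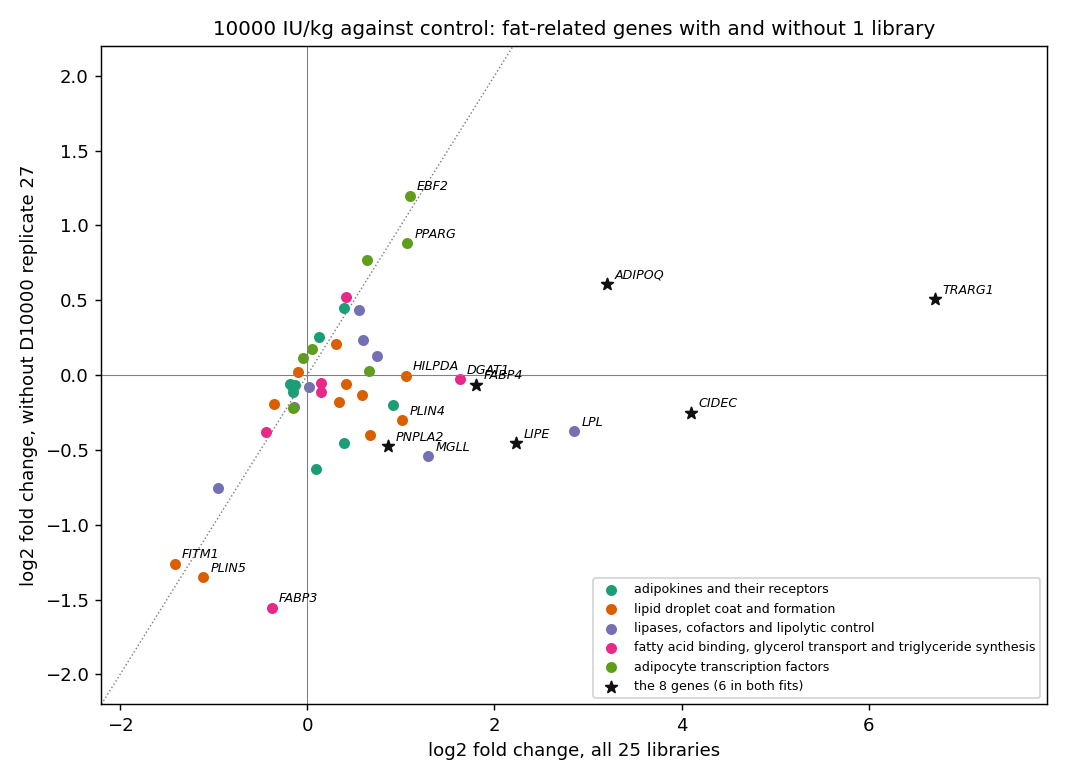
Each point is a gene, with its log2 fold change at 10000 IU/kg against control in the fit of all 25 libraries (horizontal axis) and without D10000 replicate 27 (vertical axis, on a wider scale); colours are the role lists, stars are the 6 genes tested in both fits, and the dotted line marks equal values. TRARG1 (6.71 and 0.51), CIDEC (4.10 and -0.25), ADIPOQ (3.20 and 0.61) and LPL lie far from the line, while FITM1 and EBF2 lie near it.

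Among the 24 libraries without replicate 27, the 7 tested genes were compared in 21 pairs. Of these, 1 passed the threshold after adjustment over the pairs: CIDEC and FABP4, with r = 0.75 (permutation p = 0.00014, adjusted p = 0.00294) and rho = 0.71 (adjusted p = 0.00462). The libraries farthest from the median of CIDEC were the 5 with no CIDEC count, which tied. Without 2 of these 5 the value was r = 0.79, and the rest of them stayed in. The median r over the 21 pairs was 0.23, with a range of -0.23 to 0.75. The lipase genes PNPLA2 and LIPE had r = -0.16 (permutation p = 0.392, adjusted p = 0.569).

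The share of reads assigned to genes moved with some of the 8 genes, and its part in their levels was not tested beyond the fits below. Across the 24 libraries r was 0.75 for PNPLA2 and 0.73 for FABP4 (adjusted permutation p = 0.000735 each, over 7 relations), 0.54 for CIDEC (0.0282) and 0.51 for TRARG1 (0.0343), with rho of 0.57, 0.68, 0.50 and 0.52 in that order of genes. It was -0.01 for ADIPOQ and -0.04 for both PLIN1 and LIPE. Without the 2 libraries of the most distant share FABP4 kept r = 0.58 (adjusted permutation p = 0.0381), and PNPLA2 (r = 0.56, permutation p = 0.0185, adjusted p = 0.0646), TRARG1 (0.42) and CIDEC (0.32) had positive r that missed the adjusted threshold. With the share regressed out, CIDEC and FABP4 had r = 0.63 (adjusted permutation p = 0.0552) and none of the 21 pairs passed. The difference of PNPLA2 at 5000 IU/kg was -0.65 ± 0.37 with the share as a covariate and replicate 27 left out (unadjusted p over 0.05 in edgeR). It was -1.10 ± 0.39 without replicate 27 and the 4 libraries of low share (unadjusted p = 0.00875, adjusted p = 0.9999 in edgeR). In that last fit 1.48% of all tested genes were lower at an unadjusted p under 0.05.

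**Figure D5:**
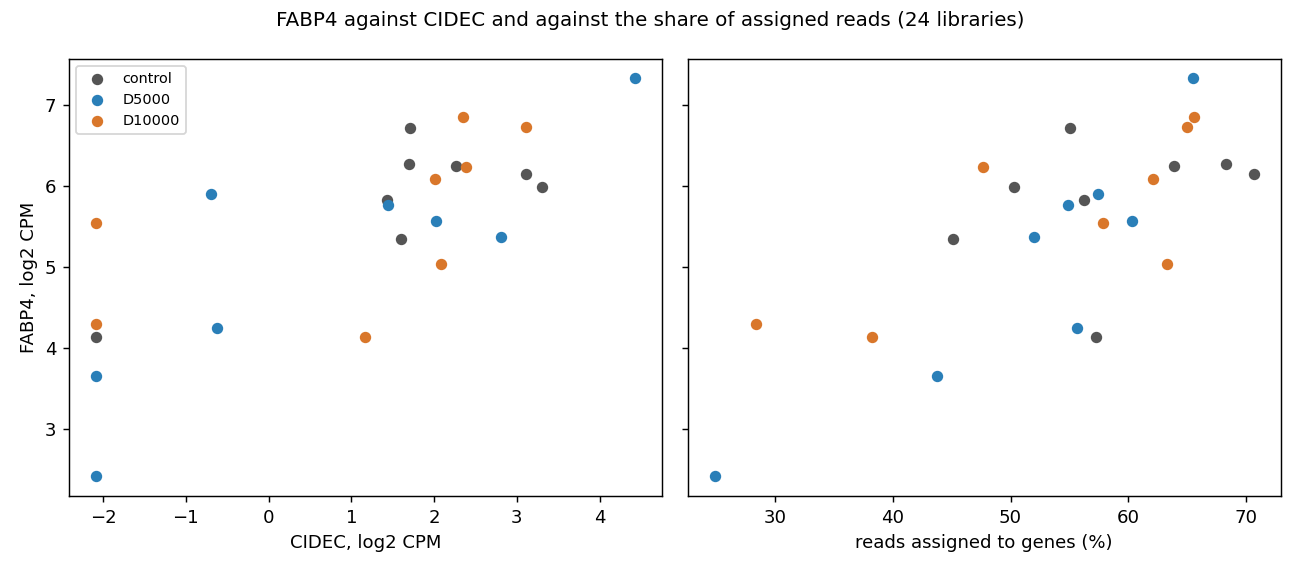
FABP4 (log2 CPM, vertical axis) is plotted against CIDEC (log2 CPM, left) and against the share of reads assigned to genes (percent, right) for 24 libraries without D10000 replicate 27, coloured by diet; libraries with no CIDEC count stand at the left edge. FABP4 is higher where CIDEC is higher (r = 0.75) and where more reads were assigned (r = 0.73), and the libraries of the 3 diets intermingle.

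Likeness to other genes was ranked by Pearson r of log2 CPM, centred within diets, over the 24 libraries, and is given as a description. PNPLA2 was most like PSMD3 (r = 0.90), a proteasome subunit gene, SDHA (0.89), of mitochondrial complex II, and ATPAF2 (0.88), an assembly factor of ATP synthase. FABP4 was most like BCL6 (0.84), SH3BGR (0.83) and ATL2 (0.83). CIDEC was most like C1QTNF3 (0.78), EIF4E (0.75) and IMPA1 (0.75), and ADIPOQ most like PRC1 (0.76), ITGBL1 (0.73) and SNAI2 (0.71). TRARG1 was most like SLC6A8 (0.73), DLG4 (0.72) and NUDT3 (0.72), PLIN1 most like NR2F6 (0.72), TKT (0.70) and PDK1 (0.67), and LIPE most like TYRO3 (0.69), NAP1L1 (0.67) and GCN1 (0.67). Without the 2 libraries farthest from the median of each of the 7 genes, these r ran from 0.53 (ADIPOQ with SNAI2) to 0.85 (PNPLA2 with SDHA). The genes named have the highest r of all tested genes with a symbol, and that choice alone favours a high r. These points share the libraries and their depth and share of assigned reads.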

How the data were processed

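Muscle RNA of 25 pigs was measured with the Lexogen QuantSeq FWD kit after extraction with the A&A Biotechnology Total RNA Mini kit, per the labels. The authors deposited raw counts of reads per Ensembl pig gene, 1 file per pig. The aligner, counting program, genome build and annotation release are not given in the sources used here. Lines of unassigned reads stayed out of library sizes and tests, and so did the spike-ins (1 read, in control replicate 23). The file of D10000 replicate 27 lacked 1 of 25880 identifiers, so 25879 were analysed, 14856 of them with a symbol.

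The filter filterByExpr (minimum count 10, minimum total 15) left 10992 genes. Libraries were scaled by TMM and fitted with the quasi-likelihood test of edgeR 4.0.16 (robust, R 4.3.3), over the 25 libraries jointly, modelling diet alone. Adjustment of p was by Benjamini-Hochberg over all genes tested (threshold 0.05). The SE is the log2 fold change over the square root of its F. The common biological coefficient of variation was 0.669, and 0.627 without D10000 replicate 27. Alternatives were RLE scaling, no filter, DESeq2 1.42.0, limma-voom 3.58.1, no robust estimation, a covariate for the assigned share, only the diets compared, and each library left out. The fit without the 5 doubtful libraries (D10000 replicate 27 and the 4 with under 45% of reads assigned) and the other uses of that share were added after the data had been seen.

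Correlations used log2 CPM (TMM, prior count 2) of 24 libraries, with centring by diet for r and none for rho, each with 100000 permutations within diets. The scripts were tested on simulated data. The 8 genes and the lists were chosen with earlier results of these data known. In each role list the text names the 2 genes with the smallest p at 10000 IU/kg with all libraries and the 2 without D10000 replicate 27, and for likeness the 3 genes with the highest r. PLIN4, PLIN2, PPARG, CEBPA, G0S2 and the markers COL1A1, COL3A1, MMP2, COL1A2, DCN, LUM, PDGFRA, PECAM1, EMCN and CDH5 were named after their values were seen. Symbols of the lists with no identifier (among them CIDEA, CD36, AQP7, GK, MYLPF, MB, TTN, VWF) have no value here.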

Additional observations from a re-analysis of the deposited data

Results flagged for a closer look

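A library was flagged where its gap to the nearest library, divided by the range of its diet, exceeded Dixon's critical value (0.526 for 8 libraries, 0.493 for 9). Chance flags about 1 in 20 sets of independent normal values, but CPM are skewed and the 8 genes share libraries. Of 24 sets (8 genes in 3 diets) 11 were flagged. By the same rule D10000 replicate 27 was flagged as the highest of its diet in 15.7% of the 10992 tested genes, and D5000 replicate 25 in 0.091%. LEP is not among those tested genes, and the 8 genes were chosen with earlier results of these data known. In the D10000 group, replicate 27 was flagged for 8 of the 8 genes, at 1234 CPM for ADIPOQ, 83.9 CPM for LEP, 102 CPM for PLIN1, 805 CPM for CIDEC, 4679.7 CPM for TRARG1, 2308 CPM for PNPLA2, 2339 CPM for LIPE and 1944 CPM for FABP4. In the D5000 group, replicate 25 was flagged for 3 genes, at 0.901 CPM for LEP, where the other 7 libraries were at 0 so that any count above 0 is flagged, at 14.6 CPM for CIDEC, where the next held 6.00 CPM, and at 9.42 CPM for TRARG1, where the next held 3.62 CPM. What set these 2 libraries apart was not tested.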

How the results depend on the processing

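The count of genes past the adjusted threshold was 0 in each of the 3 contrasts under each alternative run, among them RLE scaling, no filter, DESeq2, limma-voom and each library left out, and no fold change of the 8 genes passed it. RLE scaling moved the median log2 fold change of all genes at 10000 IU/kg to 0.11. The sign of some fold changes turned with the setting. The cause was not tested. At 10000 IU/kg against control DESeq2 gave -0.83 for PLIN1, -0.27 for CIDEC, -0.46 for LIPE and -0.076 for FABP4, and limma-voom -0.12 for PLIN1 and -0.47 for PNPLA2. Without the 5 doubtful libraries PLIN1 was at -2.54, PNPLA2 at -0.13 and LIPE at -0.28, and with a covariate for the assigned share and D10000 replicate 27 left out CIDEC was at -0.20, PNPLA2 at -0.49 and LIPE at -0.46. At 5000 IU/kg against control CIDEC was at -0.98 (DESeq2), -1.14 (limma-voom), -0.11 (covariate for the share) and -0.18 (the same without D10000 replicate 27), ADIPOQ at -0.75 (limma-voom), and without the 5 doubtful libraries PLIN1 at 0.25 and FABP4 at 0.0076. For D10000 against D5000 PLIN1 was at -0.67 (DESeq2) and -2.79 (without the 5 libraries), and CIDEC at -0.43 (without the 5 libraries) and -0.016 (covariate, without D10000 replicate 27). PLIN1 passed the filter in 23 of the 25 fits that each left out 1 library. With each library left out in turn, fold changes at 5000 IU/kg ran from -0.78 to 0.40 for ADIPOQ, -0.96 to 0.28 for PLIN1 and -1.11 to 0.38 for CIDEC, each lowest without D5000 replicate 25. At 10000 IU/kg they ran from -0.25 to 4.48 for CIDEC, -0.48 to 1.12 for PNPLA2, -0.45 to 2.57 for LIPE and -0.065 to 2.03 for FABP4, and against D5000 from -0.33 to 5.21 for CIDEC, each lowest without D10000 replicate 27. With all 25 libraries 13 of 21 pairs passed the threshold, against 1 without D10000 replicate 27 and 0 with the share regressed out, and 1 of 7 relations to the share passed without the 2 most distant libraries, against 4. Correlations that changed sign were CIDEC with LIPE (-0.0045 at prior count 0.5), ADIPOQ with PNPLA2 (0.27), PLIN1 with PNPLA2 (0.39), TRARG1 with LIPE (0.57) and PNPLA2 with LIPE (0.38) over all 25 libraries. Without the 2 farthest libraries they were PLIN1 with TRARG1 (-0.052), PLIN1 with PNPLA2 (0.033), TRARG1 with LIPE (0.14), LIPE with FABP4 (-0.065) and ADIPOQ with the share (0.30), and with the share regressed out CIDEC (-0.17), TRARG1 (-0.016) and FABP4 (-0.45), each with PNPLA2. LEP and PLIN1 were at 0 most often, in 20 and 12 of the 25 libraries, and the part of depth in this was not tested. No paired analysis was possible because animal numbers are not shared between diets and litters are not in the labels of single pigs.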
